A study of Mus musculus with 21 samples.

Results

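DNA replication and S phase genes encode the proteins that license, open and copy the genome and the enzymes that make its building blocks. A set of 43 such genes, chosen by name for their known roles, was followed in mouse CD8+ T cells, and 42 of them were measured, of 19505 genes in all. *Mcm7* is not analysed here. Each gene stood for 1 row of the deposited table, and 0 of the 42 had a mean level under the 25th percentile of all genes.

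Spleen T cells of wildtype mice received beads against CD3 and CD28, were cultured for 48 h, and purified again for CD8 by magnetic separation before RNA was hybridised to 21 Affymetrix arrays. The media were the filtered supernatant of WEHI-3B cells (AML-conditioned medium, n = 7), the filtered supernatant of dendritic cells grown from bone marrow (DC-conditioned medium, n = 7) and fresh medium (n = 7). The WEHI-3B line, a myelomonocytic leukaemia of the mouse, stands for acute myeloid leukaemia (AML), so the AML-conditioned medium came from 1 line. The labels call the arrays of a medium biological replicates 1 to 7, without saying if equal numbers share a mouse or a day, so the p-values measure the spread between these arrays. The age of the mice is not given in the sources used here.

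Markers of CD8 T cells were at high levels in every medium, with a mean over 6 genes of 11.24 to 11.42 on AML arrays, 11.26 to 11.46 on DC arrays and 11.27 to 11.42 on fresh-medium arrays, on the log2 scale. None of these 6 passed the test in any comparison. The 6 genes include *Cd3e* and *Thy1*, which CD4 T cells also express, so the list does not mark CD8 T cells alone. One label field names a reticular cell in place of a T cell. The mean over 9 markers of myeloid cells lay between 3.92 and 4.16 over all arrays. Values are log2 levels on which 1 unit is a doubling, and a level was never set against that of another gene, since probes differ in brightness.

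Replication starts when the origin recognition complex, with Cdc6 and Cdt1, loads the ring of Mcm proteins on DNA in G1. Cdc45 and the GINS complex then turn that ring into the active helicase, DNA polymerases copy the strands behind it, and the clamp PCNA keeps them on the template. Many of these genes are transcribed at the start of S phase by E2F factors, which cyclin E and its kinase help to release from the retinoblastoma protein. A T cell activated through CD3 and CD28 leaves the resting state and passes through several such rounds of replication within days.

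The promoters of 34 of the 42 genes were found by symbol in a RefSeq table of mouse assembly GRCm38.p6, as 39 windows of 300 bases from 250 before to 50 after the start. They were searched on both strands for 3 words that E2F factors are known to bind, TTCGCGC with its variants TTGGCGC as well as TTCCCGC, and matches could overlap. At least 1 of the 3 words stood in a promoter of 20 of the 34 genes (58.8%), against 9.2% of 27025 genes in the table. The windows of these genes were also richer in G and C, with a median of 60.0%, against 52.7% over all windows, and E2F words consist largely of those bases. The CCAAT box (CCAAT, either strand) was found in 58.8% of the replication genes, against 41.1% of all genes. The word TTTGAA with its variant TTCGAA, known as the CHR element of late cell cycle genes, were found in 17.6%, against 21.7%. By role, an E2F word was found for 6 of 8 genes of origin licensing, 1 of 3 of helicase activation, 4 of 6 of the primase and polymerases, 3 of 6 of the clamp, clamp loader and single-strand binding proteins, 2 of 2 of flap cutting and ligation, 1 of 4 of nucleotide supply, 3 of 3 of chromatin duplication and 0 of 2 of G1/S control. The 2 genes of G1/S control were *Ccne1* and *E2f1*, each with 1 listed window, and other starts of these genes were not searched. The count of 0 therefore does not show that their promoters lack E2F words. A match describes the letters only.

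4 promoters are shown on the strand of the gene, with E2F words in capitals. *Mcm6*, a subunit of the helicase ring, has the most matches, 5, of which 4 form 2 overlapping pairs. *Orc1*, the large subunit of the origin recognition complex, varied most between sets of arrays within a medium. *Prim1*, the catalytic primase subunit, had the highest difference of the 42 genes between AML-conditioned and fresh medium. *Tyms*, thymidylate synthase, had the lowest, and none of the 3 words is in its window. The window of *Mcm6* is chr1:128359656-128359955 on the minus strand, that of *Orc1* chr4:108579204-108579503 on the plus strand, that of *Prim1* chr10:128014965-128015264 on the plus strand, and that of *Tyms* chr5:30073576-30073875 on the minus strand.
Mcm6: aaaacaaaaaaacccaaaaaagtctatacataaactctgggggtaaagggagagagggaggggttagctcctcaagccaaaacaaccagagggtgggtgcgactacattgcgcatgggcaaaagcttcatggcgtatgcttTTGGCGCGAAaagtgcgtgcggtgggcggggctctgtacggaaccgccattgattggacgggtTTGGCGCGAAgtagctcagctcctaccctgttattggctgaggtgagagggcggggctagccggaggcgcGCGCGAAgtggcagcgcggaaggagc
Orc1: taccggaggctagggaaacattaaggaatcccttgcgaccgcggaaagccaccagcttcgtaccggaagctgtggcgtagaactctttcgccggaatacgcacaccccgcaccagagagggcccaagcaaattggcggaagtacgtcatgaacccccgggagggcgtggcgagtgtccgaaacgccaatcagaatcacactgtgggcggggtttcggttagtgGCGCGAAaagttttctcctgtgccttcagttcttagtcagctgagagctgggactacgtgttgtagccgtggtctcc
Prim1: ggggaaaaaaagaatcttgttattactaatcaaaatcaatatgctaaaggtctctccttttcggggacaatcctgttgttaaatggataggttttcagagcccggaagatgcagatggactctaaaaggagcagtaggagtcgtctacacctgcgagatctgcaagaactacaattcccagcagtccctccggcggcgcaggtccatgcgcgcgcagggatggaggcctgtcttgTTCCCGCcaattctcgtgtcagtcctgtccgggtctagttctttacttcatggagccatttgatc
Tyms: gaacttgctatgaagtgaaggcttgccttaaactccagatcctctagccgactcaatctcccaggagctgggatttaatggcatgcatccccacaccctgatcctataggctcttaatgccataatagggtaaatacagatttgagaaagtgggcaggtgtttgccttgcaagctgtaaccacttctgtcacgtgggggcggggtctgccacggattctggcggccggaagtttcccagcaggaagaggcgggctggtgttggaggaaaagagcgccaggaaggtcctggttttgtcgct

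AML-conditioned medium was set against fresh medium to ask whether soluble products of leukaemia cells go with another level of the replication machinery. Of the 42 genes, 1 was lower and 0 were higher at an adjusted p under 0.05 in limma, beside 1.48% of all genes lower and 1.3% higher (2.77% in either direction). The lower gene was *Gins4*, a subunit of the GINS complex of the helicase. Before adjustment, 4 of the 42 (9.52%) had a p under 0.05, against 15.9% of all genes, and all 4 were lower: *Gins4*, *Rpa1*, *Tyms* and *Chaf1b*. That count was 8, against 17% of all genes, without AML replicate 6, and 2 without AML replicate 5 (against 12.6%) or without fresh-medium replicate 5 (against 15.9%). The 42 log2 differences ran from -0.23 for *Tyms* to 0.16 for *Prim1*, with a median of -0.08, against -0.01 over all genes. With single arrays left out, the median lay between -0.13 and -0.05. They were below 0 for 33 genes (78.6%), against 54.4% of all genes. Standard errors lay between 0.06 and 0.16, and the 95% intervals of the 42 genes all lay between -0.49 (*Ccne2*) and 0.35 (*Prim1*). For 0 of the 42 genes did the 7 AML arrays and the 7 fresh-medium arrays fail to overlap, beside 0.795% of all genes.

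**Figure D1:**
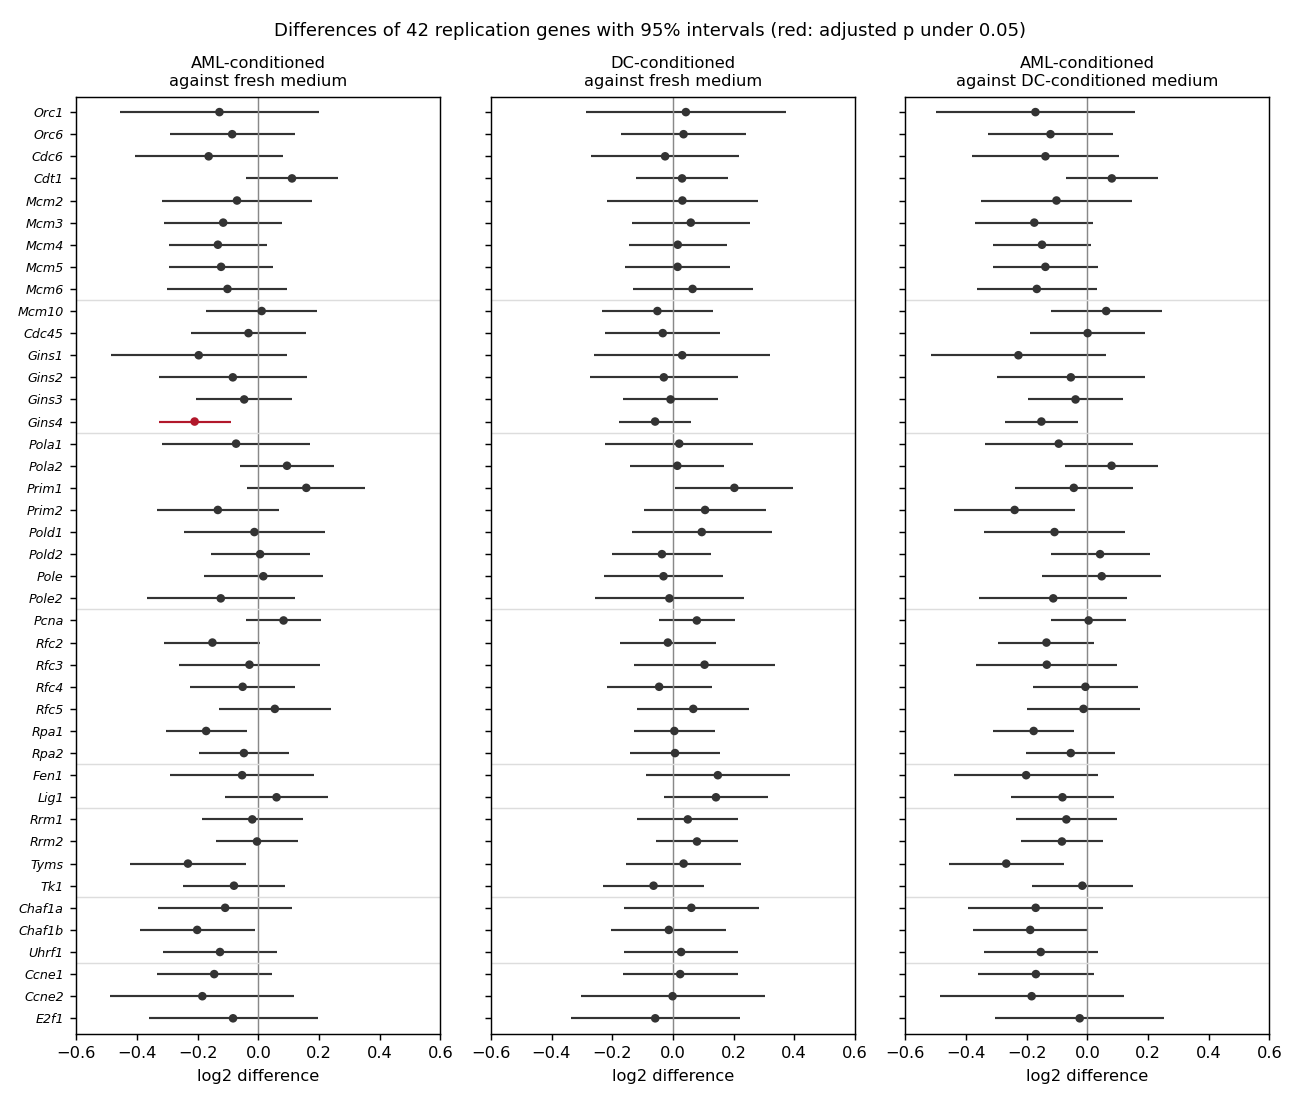
Log2 difference (x axis) of each of the 42 measured replication genes (rows, grouped by role) in the 3 comparisons, with 95% intervals from limma. In AML-conditioned against fresh medium 33 points lie below 0 and *Gins4* alone, in red, has an adjusted p under 0.05; in DC-conditioned against fresh medium the points lie about 0; in AML-conditioned against DC-conditioned medium 35 lie below 0 and none is called.

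Genes of origin licensing were tested in 9 members, 8 of which had differences below 0 (median -0.12). *Cdc6*, which recruits the Mcm ring to origins, had log2 levels of 8.60 to 9.29 (median 9.03) on AML arrays, 8.70 to 9.35 (median 9.19) on DC arrays and 8.85 to 9.32 (median 9.16) on fresh-medium arrays. The 3 ranges overlapped, although AML replicates 4 and 5 lay below every fresh-medium array. Its difference between AML-conditioned and fresh medium was -0.16 (SE 0.12, adjusted p = 0.545). *Mcm2*, a ring subunit, ranged from 9.64 to 10.15 (median 9.86) on AML arrays, from 9.55 to 10.31 (median 10.07) on DC arrays and from 9.72 to 10.11 (median 9.91) on fresh-medium arrays. AML arrays lay on both sides of the fresh-medium range, and the difference was -0.07 (SE 0.12, adjusted p = 0.847). The other ring subunits *Mcm3*, *Mcm4*, *Mcm5* and *Mcm6* had differences of -0.12, -0.13, -0.12 and -0.10. *Cdt1*, the partner of Cdc6 in loading, was the member of this role with a positive difference, 0.11 (SE 0.07, adjusted p = 0.50).

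Helicase activation was the role with the called gene. *Gins4* had levels of 8.77 to 9.01 (median 8.83) on AML arrays, 8.93 to 9.09 (median 8.99) on DC arrays and 8.96 to 9.17 (median 9.06) on fresh-medium arrays. On 6 of the 7 AML arrays it was below every fresh-medium array, and AML replicate 6 lay within the fresh-medium range. The difference was -0.21 (SE 0.06, 95% interval -0.33 to -0.09, adjusted p = 0.0477), a 0.864-fold level. It stayed between -0.24 and -0.18 under the alternatives tried, and the call ended under 24 of 35 of them, with an adjusted p of up to 0.317. Without AML replicates 4 and 5 it was -0.19 (adjusted p = 0.213). The other GINS subunits *Gins1*, *Gins2* and *Gins3* differed by -0.20 (SE 0.14), -0.08 (SE 0.12) and -0.05 (SE 0.08), and *Cdc45*, the third part of the helicase, by -0.03 (SE 0.09). *Mcm10*, which helps to start the helicase, differed by 0.01 (SE 0.09).

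The primase and polymerases were split, with 4 of 8 differences below 0 and a median of 0.00. *Prim1*, the catalytic primase subunit, had levels of 9.78 to 10.16 (median 9.83) on AML arrays, 9.66 to 10.06 (median 9.93) on DC arrays and 9.32 to 10.05 (median 9.75) on fresh-medium arrays. The ranges overlapped, with fresh-medium replicates 1 and 2 as the lowest of the 21 values, and the difference between AML-conditioned and fresh medium was 0.16 (SE 0.09, adjusted p = 0.442). Its partner *Prim2*, the large primase subunit, differed by -0.13 (SE 0.10, adjusted p = 0.548). The polymerase subunits *Pold1*, *Pold2*, *Pole* and *Pole2* of the lagging and leading strands differed by -0.01, 0.01, 0.02 and -0.12.

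Among the clamp, its loader and the single-strand binding proteins, 5 of 7 differences were below 0 (median -0.05). *Rpa1*, the large subunit of replication protein A that coats single-stranded DNA, had levels of 9.31 to 9.75 (median 9.49) on AML arrays, 9.58 to 9.77 (median 9.67) on DC arrays and 9.59 to 9.80 (median 9.68) on fresh-medium arrays. It was below every fresh-medium array on 6 of 7 AML arrays, while AML replicate 7 lay within the fresh-medium range, and the difference of -0.17 (SE 0.06) had an adjusted p of 0.166. *Pcna*, the sliding clamp, had levels of 11.81 to 11.97 (median 11.85) on AML arrays, 11.68 to 11.93 (median 11.91) on DC arrays and 11.62 to 11.93 (median 11.78) on fresh-medium arrays. The ranges of *Pcna* overlapped, and its difference was 0.08 (SE 0.06, adjusted p = 0.549). Of the clamp loader, *Rfc2* differed by -0.15 (SE 0.08, adjusted p = 0.343) and *Rfc5* by 0.05 (SE 0.09). *Lig1*, which seals the fragments of the lagging strand, had levels of 7.45 to 7.64 (median 7.50) on AML arrays, 7.39 to 7.86 (median 7.62) on DC arrays and 7.22 to 7.68 (median 7.52) on fresh-medium arrays. All AML values of *Lig1* lay inside the fresh-medium range, with a difference of 0.06 (SE 0.08, adjusted p = 0.801), and *Fen1*, the flap endonuclease, differed by -0.05 (SE 0.12).

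Nucleotide supply held the lowest difference of the whole set. *Tyms*, which makes thymidylate, had levels of 8.53 to 9.10 (median 8.81) on AML arrays, 8.80 to 9.25 (median 9.17) on DC arrays and 8.86 to 9.30 (median 9.02) on fresh-medium arrays. It was below every fresh-medium array on 5 of 7 AML arrays, and the difference of -0.23 (SE 0.09) had an adjusted p of 0.196. *Rrm2*, the regulated subunit of ribonucleotide reductase, had levels of 10.49 to 10.74 (median 10.70) on AML arrays, 10.54 to 10.85 (median 10.80) on DC arrays and 10.53 to 10.75 (median 10.66) on fresh-medium arrays. Its AML and fresh-medium ranges were close to each other, and the difference was -0.00 (SE 0.06, adjusted p = 0.985). The other subunit, *Rrm1*, differed by -0.02 (SE 0.08), and *Tk1*, thymidine kinase, by -0.08 (SE 0.08).

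All 3 genes of chromatin duplication and all 3 of G1/S control had differences below 0, and none passed. *Chaf1b*, a subunit of the factor that deposits histones behind the fork, had levels of 8.48 to 9.06 (median 8.85) on AML arrays, 8.77 to 9.21 (median 9.06) on DC arrays and 8.86 to 9.11 (median 8.999) on fresh-medium arrays. It was below every fresh-medium array on 4 of 7 AML arrays, and the difference was -0.20 (SE 0.09, adjusted p = 0.276). *Uhrf1*, which carries DNA methylation over to the new strand, differed by -0.13 (SE 0.09). *Ccne1*, a cyclin E, had levels of 9.28 to 9.83 (median 9.60) on AML arrays, 9.50 to 9.98 (median 9.85) on DC arrays and 9.60 to 9.89 (median 9.74) on fresh-medium arrays. AML arrays reached both below and into the fresh-medium range of *Ccne1*, with a difference of -0.15 (SE 0.09, adjusted p = 0.474). *Ccne2*, the other cyclin E, spread more, at 6.32 to 7.19 (median 6.96) on AML arrays, 6.66 to 7.49 (median 7.12) on DC arrays and 6.69 to 7.45 (median 7.12) on fresh-medium arrays. AML replicates 4 and 5 were the lowest of its 21 values, and the difference was -0.18 (SE 0.15, adjusted p = 0.594). *E2f1* had levels of 7.15 to 7.95 (median 7.56) on AML arrays, 7.21 to 7.96 (median 7.79) on DC arrays and 7.22 to 7.86 (median 7.75) on fresh-medium arrays. These ranges of *E2f1* overlapped almost fully, and its difference was -0.08 (SE 0.14, adjusted p = 0.837).

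**Figure D2:**
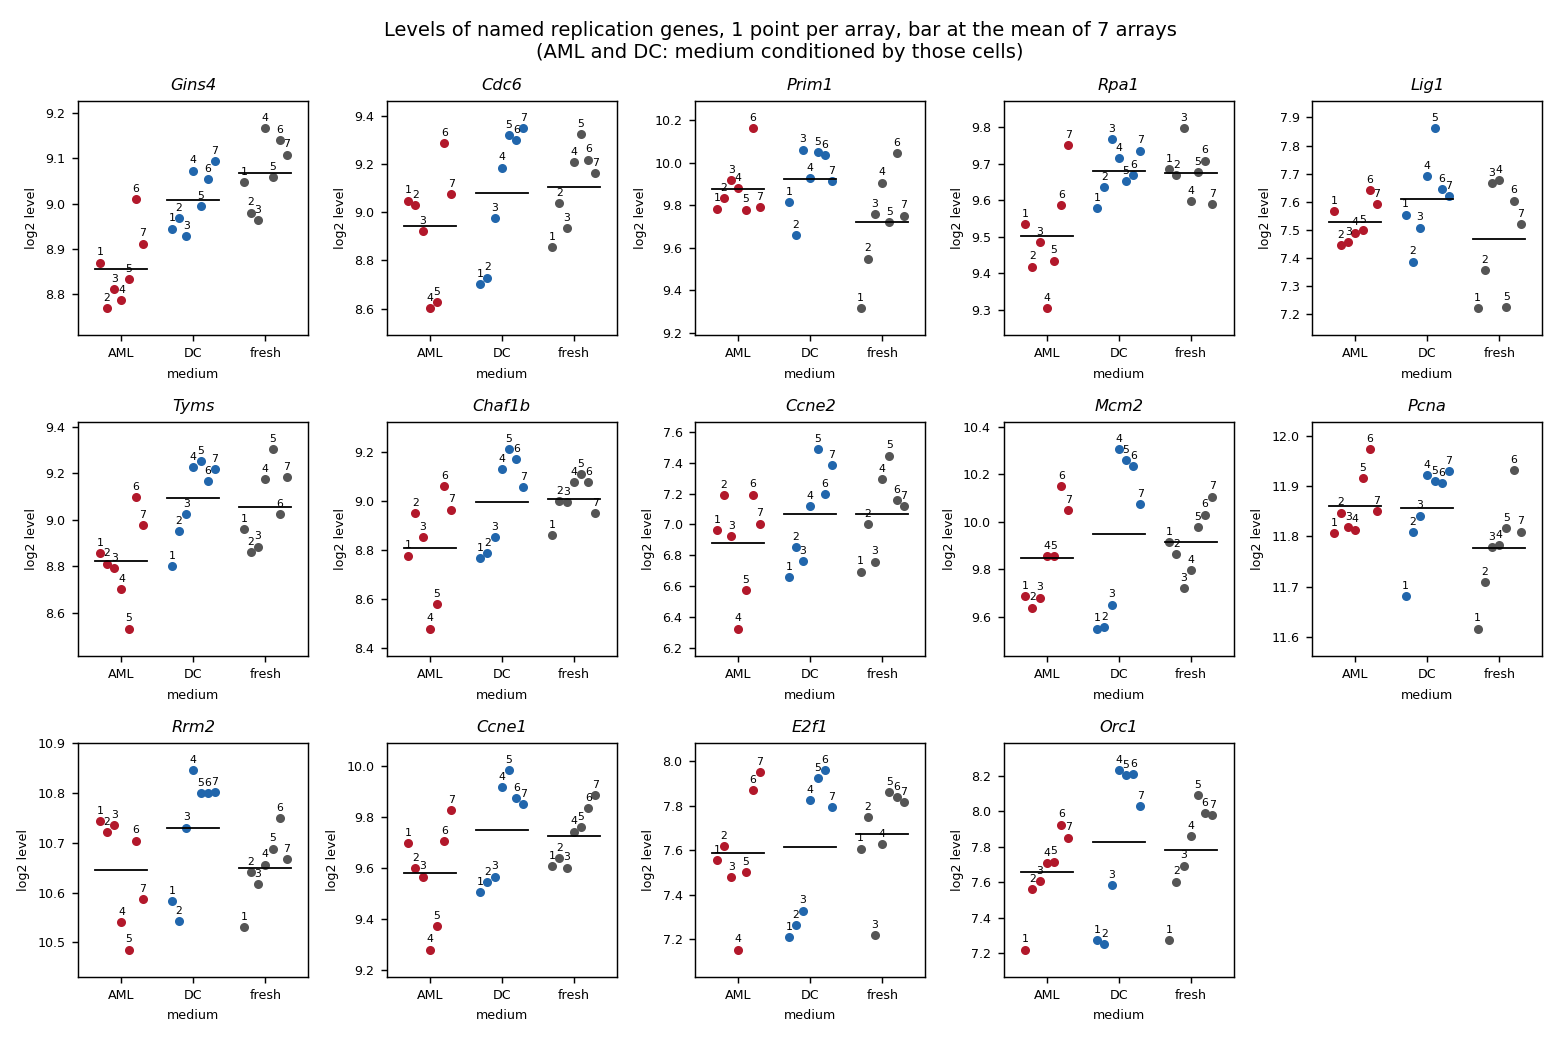
Log2 level (y axis) of 14 replication genes on each array of the 3 media, with the replicate number above each point and a bar at the mean of 7 arrays. *Gins4* and *Rpa1* are below all fresh-medium arrays on 6 of 7 AML arrays, and *Orc1*, added after its values were seen, is above replicates 1 to 3 on replicates 4 to 7 in each medium.

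DC-conditioned medium was compared with fresh medium to show what conditioning by cells other than leukaemia cells goes with, and it shares the fresh-medium arrays with the first comparison. In limma 0 of the 42 genes passed, beside 0% of all genes in either direction, and 0 passed with an unmoderated test per gene. At an unadjusted p under 0.05 there was 1 gene (2.38%), against 6.41% of all genes. That gene was *Prim1*, with the levels given above and a difference of 0.20 (SE 0.09, adjusted p = 0.770). The median difference was 0.02, against -0.01 over all genes, and 27 differences were above 0. This direction turned without DC replicate 4, 5 or 7, with medians of -0.01, -0.01 and -0.00 and with 23, 23 and 22 of 42 differences below 0, and with each array centred on its median 6 were below 0. The 95% intervals of the 42 genes lay between -0.34 (*E2f1*) and 0.40 (*Prim1*). *Fen1* and *Lig1*, the flap cutting and ligation genes, followed *Prim1*, with differences of 0.15 (SE 0.12) and 0.14 (SE 0.08). The DC and fresh-medium arrays were apart for 0 of the 42 genes, beside 0.113% of all genes.

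AML-conditioned medium was also set against DC-conditioned medium, which shares the AML arrays with the first comparison and the DC arrays with the second. In limma 0 of the 42 genes passed, beside 2.39% of all genes (1.13% higher and 1.26% lower), and 0 passed with an unmoderated test per gene. At an unadjusted p under 0.05 there were 4 genes (9.52%), against 14.3% of all genes, and all 4 were lower. The count was 13 without DC replicate 2 (against 14.6% of all genes), 12 without DC replicate 1 (against 14.1%), 12 without AML replicate 6 (against 16.7%) and 7 without AML replicate 7 (against 14.8%). With a block for the sets of replicates 1 to 3 and 4 to 7 it was 11, against 17%. In the fit of all arrays the 4 genes were *Tyms*, *Rpa1*, *Gins4* and *Prim2*, with differences of -0.27 (adjusted p = 0.138), -0.18 (adjusted p = 0.168), -0.15 (adjusted p = 0.195) and -0.24 (adjusted p = 0.232). The median difference was -0.11, against 0.01 over all genes, and 35 differences (83.3%) were below 0, against 48.1% of all genes. The lowest interval bound was -0.52, for *Gins1*, and the highest 0.25, for *E2f1*. Of the genes above 0, *Cdt1* was highest at 0.08 (SE 0.07). For 0 of the 42 genes were the 7 AML arrays and the 7 DC arrays apart, beside 0.815% of all genes.

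The mean of the 42 genes varied between the arrays of each medium. Their mean on each array, given relative to the fresh-medium mean, had an SD of 0.12 over the AML arrays, 0.19 over the DC arrays and 0.11 over the fresh-medium arrays. The means of the media were -0.07, 0.03 and 0.00. On AML replicates 1 to 7 the array mean was -0.07, -0.07, -0.11, -0.23, -0.17, 0.11 and 0.04. On DC replicates 1 to 7 it was -0.22, -0.19, -0.11, 0.14, 0.19, 0.19 and 0.18. On fresh-medium replicates 1 to 7 it was -0.17, -0.06, -0.12, 0.05, 0.11, 0.10 and 0.09. Replicates 4 to 7 were thus above replicates 1 to 3 in DC-conditioned and in fresh medium, and in AML-conditioned medium replicates 4 and 5 were the lowest and 6 and 7 the highest.

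**Figure D3:**
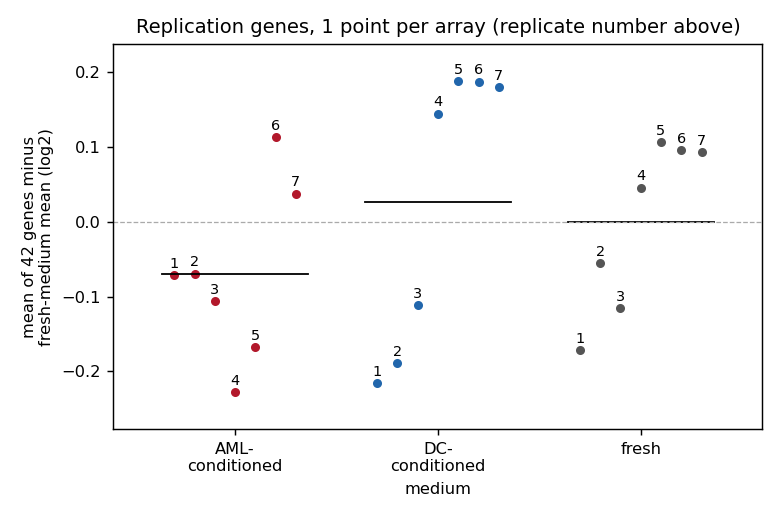
Mean log2 level of the 42 replication genes on each array minus the fresh-medium mean (y axis), by medium, with the replicate number above each point and a bar at the mean of 7 arrays. DC replicates 4 to 7 sit between 0.14 and 0.19 and DC replicates 1 to 3 between -0.22 and -0.11, while AML replicates 4 and 5 are at -0.23 and -0.17.

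This division of the replicate numbers is not explained by the labels, had been seen in earlier results of these data, and is given as a description with no test. In DC-conditioned medium 36 of the 42 genes (85.7%) were higher on each of replicates 4 to 7 than on any of replicates 1 to 3, beside 13.6% of all genes. In fresh medium this held for 23 genes (54.8%), beside 7.74%, and in AML-conditioned medium for 3 (7.14%), beside 4.64%. The 3 genes in AML-conditioned medium were *Orc1*, *Mcm2* and *Mcm6*. The opposite order was found for 1 gene in AML-conditioned medium, *Rrm2*, beside 6.01% of all genes, and for 0 in DC-conditioned and 0 in fresh medium, beside 11.2% and 7.49%. The median difference of replicates 4 to 7 minus 1 to 3 was 0.03 in AML-conditioned, 0.35 in DC-conditioned and 0.20 in fresh medium, against -0.00, -0.02 and -0.02 over all genes. It was above 0 for 25, 42 and 39 of the 42 genes in these media. With each array centred on its median the counts in AML-conditioned, DC-conditioned and fresh medium were 3, 36 and 32, and after a further quantile normalization 3, 34 and 19.

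*Orc1* differed most between these arrays. On replicates 4 to 7 and 1 to 3 it ranged from 7.71 to 7.93 and from 7.22 to 7.61 in AML-conditioned medium, from 8.03 to 8.23 and from 7.25 to 7.58 in DC-conditioned medium, and from 7.86 to 8.09 and from 7.27 to 7.69 in fresh medium. The ranges did not meet in any medium, and the differences were 0.34, 0.80 and 0.46. *E2f1* ranged from 7.15 to 7.95 and from 7.48 to 7.62 in AML-conditioned medium, from 7.79 to 7.96 and from 7.21 to 7.33 in DC-conditioned medium, and from 7.63 to 7.86 and from 7.22 to 7.75 in fresh medium. Its ranges were apart in DC-conditioned medium and overlapped in the other media. *Gins1*, a GINS subunit, ranged from 7.38 to 8.31 and from 7.72 to 7.83 in AML-conditioned medium, from 8.21 to 8.24 and from 7.62 to 7.78 in DC-conditioned medium, and from 8.10 to 8.14 and from 7.52 to 7.94 in fresh medium. Replicates 4 to 7 of *Gins1* were within a narrow band in DC-conditioned and fresh medium and widely spread in AML-conditioned medium. In DC-conditioned medium the 6 genes that did not follow the division were *Cdt1*, *Prim1*, *Prim2*, *Rpa1*, *Rpa2* and *Tk1*, and the smallest difference there was 0.03, for *Rpa1*.

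**Figure D4:**
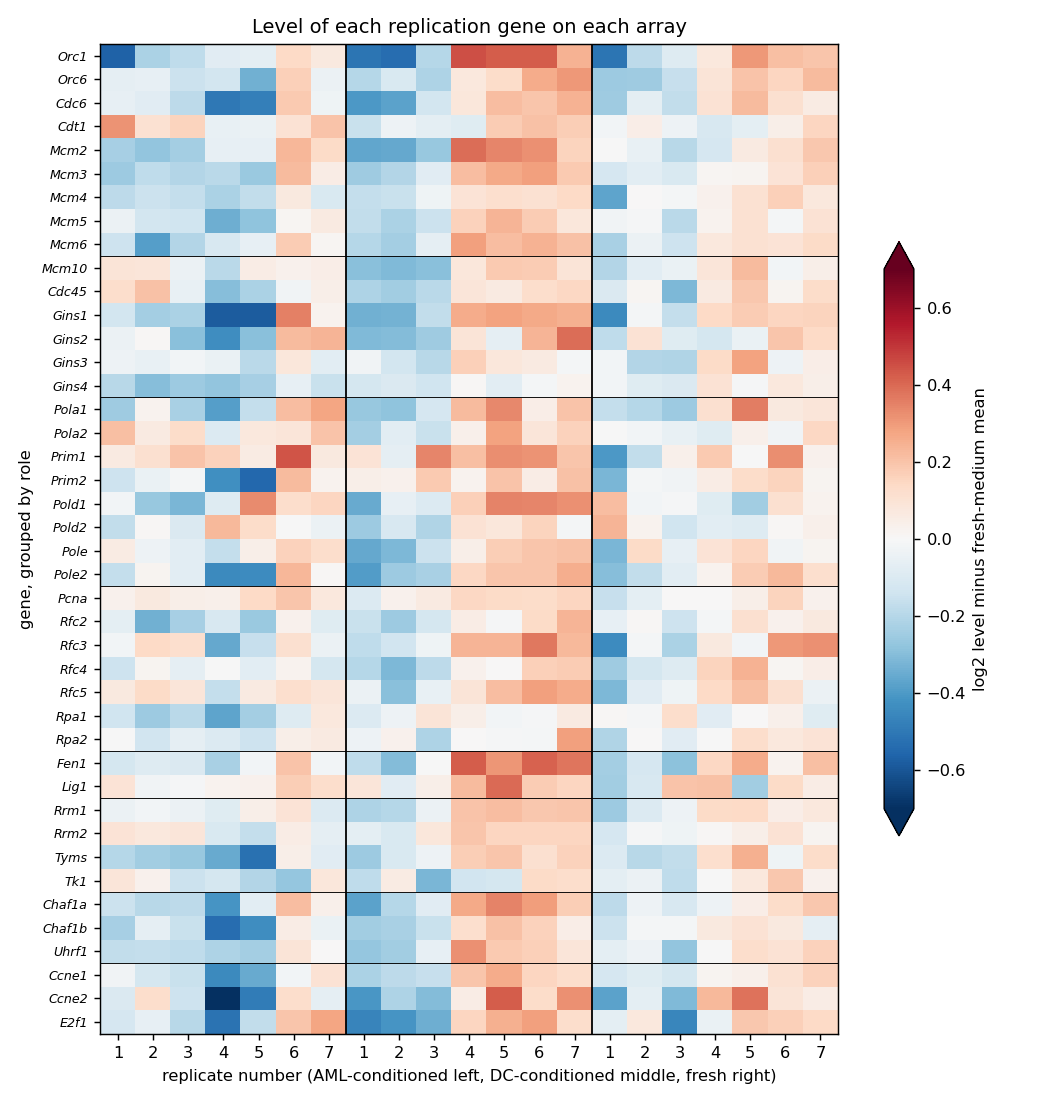
Log2 level of each of the 42 replication genes (rows, grouped by role) minus its fresh-medium mean, on each of the 21 arrays (columns, by medium and replicate number); red is above and blue below. DC replicates 1 to 3 are below the fresh-medium mean for 36 to 39 of the 42 genes and DC replicates 4 to 7 for 2 to 6, and AML replicates 4 and 5 hold the darkest blue cells of *Ccne2*, *Gins1* and *Cdc6*.

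The spread of single genes was widest in DC-conditioned medium. The median SD over 7 arrays was 0.147 in AML-conditioned, 0.199 in DC-conditioned and 0.147 in fresh medium, against 0.165, 0.158 and 0.177 over all genes. The SD in DC-conditioned medium was above that in fresh medium for 33 of the 42 genes (78.6%), against 42.4% of all genes. In AML-conditioned medium it was above for 26 (61.9%), against 44.9%. The widest SD was that of *Orc1* in DC-conditioned medium, 0.446, and the narrowest that of *Pcna* in AML-conditioned medium, 0.0621.

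Relative to fresh medium, AML replicates 4 and 5 were lower for some roles than for others. The mean of the G1/S control genes was -0.57 and -0.34 on them, relative to fresh medium, that of chromatin duplication -0.39 and -0.25, and that of helicase activation -0.30 and -0.24. The flap cutting and ligation genes were at -0.10 and 0.01. On AML replicates 1 to 3 G1/S control ranged from -0.16 to -0.02, chromatin duplication from -0.19 to -0.14 and helicase activation from -0.15 to -0.03. On AML replicates 6 and 7 these roles were at 0.10 and 0.11, 0.12 and -0.00, and 0.10 and 0.02. AML replicate 4 was the lowest of the 21 arrays for 11 of the 42 genes, fresh-medium replicate 1 for 7, and AML replicate 5 and DC replicate 1 for 6 each, and DC replicate 5 was the highest for 9. Without AML replicates 4 and 5 the median difference from fresh medium was -0.03 and that from DC-conditioned medium -0.05, and 0 genes passed in either comparison, beside 0.569% and 0.472% of all genes. At an unadjusted p under 0.05 there were 2 and 1 genes, against 10.5% and 9.15% of all genes.

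The media were also compared within each set of replicate numbers. This division was chosen with the values of these genes known, so the counts are a description. For AML-conditioned against fresh medium the median difference in replicates 1 to 3 alone was 0.05, with 16 of 42 below 0 and 3 genes at an unadjusted p under 0.05, against 16.4% of all genes. In replicates 4 to 7 alone it was -0.16, with 34 below 0 and 12 genes, against 16.1%. For AML-conditioned against DC-conditioned medium the median was 0.08 in replicates 1 to 3, with 9 genes below 0 and 6 at an unadjusted p under 0.05, all higher, against 12.4% of all genes. In replicates 4 to 7 it was -0.23, with 42 below 0 and 24 genes at an unadjusted p under 0.05, against 16.2%. For DC-conditioned against fresh medium it was -0.07 in replicates 1 to 3, with 29 below 0 and 2 genes against 9.06%, and 0.09 in replicates 4 to 7, with 5 below 0 and 4 genes against 6.95%. In limma 0 of the 42 genes had an adjusted p under 0.05 in any of these 6 fits, and few of all genes did. In replicates 1 to 3, 1.92% of all genes passed for AML-conditioned against fresh medium. The share was 0% for DC-conditioned against fresh medium and 1.63% for AML-conditioned against DC-conditioned medium. In replicates 4 to 7 these shares were 0.164%, 0% and 0.22%. The difference between the 2 sets was not tested.

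Other gene lists of the cell cycle were read beside these. In AML-conditioned against fresh medium 2.77% of all genes passed in limma, and 15.9% had an unadjusted p under 0.05. Of 32 other replication genes 0 passed in AML-conditioned against fresh medium in limma, with 4 at an unadjusted p under 0.05 and a median of -0.03. The smallest adjusted p among them was that of *Top1*, a topoisomerase that relieves twist ahead of the fork, with a difference of 0.21 (SE 0.07, adjusted p = 0.123). Of 18 other nucleotide supply genes 0 passed, with 4 at an unadjusted p under 0.05, and *Shmt2*, a mitochondrial enzyme of one-carbon metabolism, differed by 0.50 (SE 0.15, adjusted p = 0.0811). *Mthfd2*, of the same pathway, had levels of 9.29 to 10.31 (median 9.71) on AML arrays and 8.80 to 9.56 (median 9.41) on DC arrays. Its ranges overlapped, and it was higher in AML-conditioned than in DC-conditioned medium by 0.56 (SE 0.15, adjusted p = 0.0459), the 1 gene of these lists called in that comparison. Of all genes 2.39% were called in that comparison. Without AML replicates 4 and 5, none of the other nucleotide supply genes was called there, beside 0.472% of all genes. None was called in replicates 4 to 7 alone either, beside 0.22%, and 5 were in replicates 1 to 3 alone, beside 1.63%. Against fresh medium 3 of this list were called higher in replicates 1 to 3 alone, beside 1.92% of all genes called. Of 11 other chromatin duplication genes 0 passed against fresh medium, with 1 at an unadjusted p under 0.05, *Slbp*, which binds histone messages, at -0.19 (SE 0.08, adjusted p = 0.256).

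Upstream regulators were tested next. Of 19 G1/S regulators 0 were called in AML-conditioned against fresh medium in limma, with 3 at an unadjusted p under 0.05, against 15.9% of all genes. The smallest adjusted p was that of the kinase *Cdk6*, with a difference of 0.62 (SE 0.22, adjusted p = 0.144). In replicates 1 to 3 alone 2 G1/S regulators were called higher against fresh medium and 2 against DC-conditioned medium, beside 1.92% and 1.63% of all genes called. Of 7 inhibitors of cyclin-dependent kinases 0 were called, with 1 at an unadjusted p under 0.05, *Cdkn1b*, which encodes p27, at -0.30 (SE 0.10, adjusted p = 0.111). Of 23 mitosis genes 20 had differences below 0 (median -0.16) and 9 an unadjusted p under 0.05, against 15.9% of all genes. Of these 1 was called, *Cenpa*, the histone variant of centromeres, with levels of 9.39 to 10.34 (median 10.17) on AML arrays and 10.30 to 10.67 (median 10.49) on fresh-medium arrays. It was lower by a log2 difference of -0.43 (SE 0.12, adjusted p = 0.0438 in limma). Without AML replicates 4 and 5, 0 mitosis genes were called, beside 0.569% of all genes. In DC-conditioned against fresh medium 0 genes of any of these 6 lists were called, beside 0% of all genes. At an unadjusted p under 0.05 there were 2 other replication genes and 0 of the other 5 lists, against 6.41% of all genes.

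**Figure D5:**
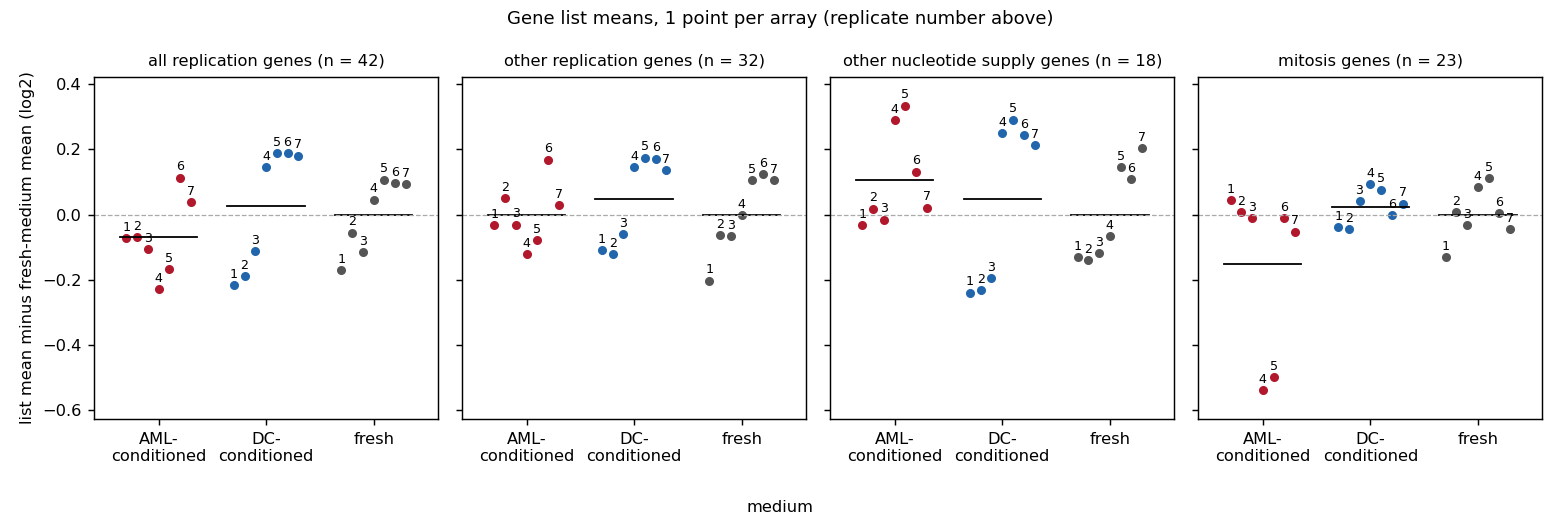
Mean log2 level of 4 gene lists on each array minus the fresh-medium mean (y axis), by medium, with the replicate number above each point and a bar at the mean of 7 arrays. On AML replicates 4 and 5 the mitosis genes are at -0.54 and -0.50 and the other nucleotide supply genes at 0.29 and 0.33, and DC replicates 4 to 7 lie above DC replicates 1 to 3 for the replication and nucleotide supply lists.

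The other lists moved in part with the replicate division. The median difference of replicates 4 to 7 minus 1 to 3 was 0.02 for the other replication genes in AML-conditioned, 0.27 in DC-conditioned and 0.19 in fresh medium. For the other nucleotide supply genes it was 0.23 in AML-conditioned, 0.52 in DC-conditioned and 0.29 in fresh medium. Of these 18 genes 6, 13 and 6 were above on each of replicates 4 to 7, beside 4.64%, 13.6% and 7.74% of all genes. The opposite order was found for 2 of the 18 in each medium, beside 6.01%, 11.2% and 7.49%. For the mitosis genes the median difference was -0.31 in AML-conditioned, 0.04 in DC-conditioned and 0.11 in fresh medium. The mean of 6 CD8 T cell markers, relative to fresh medium, was -0.11 to -0.00 on AML replicates 4 to 7 and 0.02 to 0.07 on AML replicates 1 to 3. It was -0.08 to -0.03 on DC replicates 4 to 7 and 0.08 to 0.12 on DC replicates 1 to 3. In fresh medium it was -0.07 to -0.02 on replicates 4 to 7 and 0.05 to 0.08 on replicates 1 to 3. In the deposited values the mean of these markers was thus apart between the 2 sets in all 3 media. In AML-conditioned medium the mean of the replication genes was not apart. In fresh medium the median difference of the 6 markers was -0.07 as deposited, and 3 were lower on each of replicates 4 to 7, beside 7.49% of all genes. With each array centred on its median it was 0, with 0 of 6 lower. In AML-conditioned and DC-conditioned medium it was -0.09 and -0.21 as deposited and -0.10 and -0.19 when centred. The part of these marker differences in the replication genes was not tested.

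Some genes listed as markers of other cells differed in AML-conditioned medium as well. Of all genes 2.77% were called against fresh medium, and 15.9% had an unadjusted p under 0.05. Of 4 CD4 T cell markers 1, *Cd4*, was higher than in fresh medium, by 0.79 (SE 0.18, adjusted p = 0.0150 in limma). All 4 had a difference above 0 (median 0.42) and an unadjusted p under 0.05. The 4 genes include *Il2ra*, which activated CD8 T cells also express, so the list does not mark CD4 T cells alone. The list mean was 7.00 to 7.62 on AML arrays and 6.72 to 7.15 on fresh-medium arrays. Of 3 NK cell markers 1, *Eomes*, which effector CD8 T cells also express, was higher by 0.71 (SE 0.14, adjusted p = 0.00844), 2 of 3 had an unadjusted p under 0.05, and the list mean was 4.98 to 5.46 on AML arrays and 4.85 to 5.07 on fresh-medium arrays. Of 8 dendritic cell markers 1, *H2-Ab1*, a chain of MHC class II, was lower by a log2 difference of -1.33 (SE 0.30, adjusted p = 0.0168 in limma). It stood apart from most of its list, in which 3 of 8 differences were below 0 and the median was 0.04. An unadjusted p under 0.05 was found for 1 of 8. The list mean, which includes *H2-Ab1*, was 4.24 to 4.63 on AML arrays and 4.43 to 4.70 on fresh-medium arrays. Of 9 myeloid and 4 B cell markers 0 were called in limma, with 1 and 0 at an unadjusted p under 0.05. Without AML replicates 4 and 5 none of the CD4, NK and dendritic cell markers was called against fresh medium, beside 0.569% of all genes. In replicates 4 to 7 alone none was called in limma either, beside 0.164%. In replicates 1 to 3 alone 2, 1 and 1 of these markers were called, beside 1.92%. In RNA from a whole population, fewer cells in S phase and less RNA of these genes per cell cannot be told apart, and the part of other cells was not tested.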

How the data were processed

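The authors deposited log2 expression values per transcript cluster. The submitters' processing notes name RMA and oligo, without versions. RMA removes background, makes the distributions of probe values equal between arrays and combines the probes of a cluster, and differences at low levels come out compressed. The gene values of the arrays were not fully equal in distribution. Their medians over all genes ran from 5.35 (DC replicate 5) to 5.52 (fresh-medium replicate 1). Of 22203 transcript clusters 19572 had 1 gene symbol; 55 symbols had several clusters, of which the one with the highest mean was kept, and 19505 genes remained. All 42 measured members were matched by gene identifier. Media were compared with limma 3.58.1 (R 4.3.3, lmFit and eBayes) in 1 fit of 21 arrays without covariates, two-sided, with Benjamini-Hochberg adjustment over all genes and a call at an adjusted p under 0.05; the scripts were tested on simulated data. The number of arrays limits the precision. Values are given for each called member, for the member with the largest difference in each of 8 roles, and for *Mcm2*, *Cdc6*, *Pcna*, *Rrm2*, *Ccne1* and *E2f1*; of other lists, each called gene or the one with the smallest adjusted p is named. *Orc1*, *Gins1*, *Fen1* and others were named after their values were seen. Members, lists, the division of replicate numbers and the alternatives were chosen with earlier results of these data known. The alternatives were replicate number as a block or random effect, a block for replicates 1 to 3 and 4 to 7, each of these sets alone, arrays left out, 2 other scalings, a filter at the 25th percentile, the mean of transcript clusters, and other variance models.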

Additional observations from a re-analysis of the deposited data

Results flagged for a closer look

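Of 129 groups of 7 arrays (42 genes and their mean in 3 media), 6 held a highest or lowest value set apart from the others by Dixon's test, and chance gives about 1 in 20. On AML replicate 6, *Prim1* was high at 10.16, with the other AML arrays between 9.78 and 9.92, and *Mcm4* was high at 10.07, with the others between 9.78 and 9.90. On AML replicate 4, *Rfc5* was low at 7.52, with the others between 7.74 and 7.81. On fresh-medium replicate 1, *Mcm4* was low at 9.63, with the others between 9.99 and 10.17, and *Prim2* was low at 9.20, with the others between 9.49 and 9.68. On fresh-medium replicate 3, *E2f1* was low at 7.22, with the others between 7.61 and 7.86. The causes were not tested.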

How the results depend on the processing

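In DC-conditioned against fresh medium and in AML-conditioned against DC-conditioned medium, 0 replication genes were called under all 35 alternatives. In AML-conditioned against fresh medium the count was 1, *Gins4*, and it was 0 with replicates 1 to 3 alone, replicates 4 to 7 alone, AML replicates 4 and 5 left out, each array centred on its median, array weights, and the 2 groups fitted alone. It ranged from 0 to 1 when single arrays were left out: the call held without AML replicate 6, AML replicate 7 or fresh-medium replicate 3 and ended without any of the other 18. The median difference of AML-conditioned from DC-conditioned medium was 0.083 with replicates 1 to 3 alone. No result that had passed changed sign. The correlation of same-numbered arrays ran from -0.11 to 0.21 for AML-conditioned with fresh medium, from 0.04 to 0.36 for DC-conditioned with fresh medium and from 0.07 to 0.27 for AML-conditioned with DC-conditioned medium, and an array correlated best with its own number in 4, 2 and 4 of 7 cases, so the numbers were not taken to pair the arrays. With the replicate number as a block the counts of called replication genes were 1, 0 and 0, with *Gins4* at -0.21 (adjusted p = 0.0305). The counts over all genes, 541, 0 and 466, were 1012, 1 and 784 with that block, 1026, 1 and 797 with a block for the 2 sets of replicate numbers, 111, 1 and 92 without AML replicates 4 and 5, 32, 0 and 43 in replicates 4 to 7 alone, 374, 0 and 318 in replicates 1 to 3 alone, and 246, 0 and 249 with the 2 groups alone. RMA gives no signal over background, so detection on 1 array was not assessed.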
